A study of Mus musculus with 6 samples.

Results

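The genes described are 10 members of the interleukin-6 cytokine family and its receptors: the ligands Il6, Il11, Lif, Osm and Clcf1, and the receptor chains Il6ra, Il6st, Lifr, Osmr and Il11ra1. They were chosen by gene name, and all 10 were found among the 43346 genes of the deposited count table. RNA was sequenced from 6 femur libraries of C57BL/6 mice aged 4 months, a common inbred laboratory strain. The right femur had received a single image-guided X-ray dose of 24 Gy (gray, the unit of absorbed dose), at 6.6 Gy per minute, to 5 mm of the distal metaphysis, the marrow-rich end of the shaft beside the growth plate (radiated, 3 libraries). The left femur was the non-radiated control (3 libraries), so the controls came from animals that had also been irradiated, in the other leg. Bone was taken on day 21, before the bone loss that was observed on day 28, and the comparison asks what differed ahead of that loss. The labels do not say whether a library is 1 mouse or a pool, so p-values measure the spread between these libraries.

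Cytokines of this family signal through a shared receptor subunit, gp130, which Il6st encodes. IL-6 and IL-11 first bind their own receptor, encoded by Il6ra and Il11ra1, which then engages gp130, whereas LIF uses gp130 with the LIF receptor, mouse oncostatin M (Osm) uses gp130 mainly with the oncostatin M receptor, and CLCF1 uses the CNTF receptor with gp130 and the LIF receptor. The receptors activate JAK kinases and the transcription factor STAT3, and SOCS3 is induced as a feedback inhibitor. In bone, these ligands are known to act on osteoblast-lineage cells, partly through RANK ligand and sclerostin, and Il6 is a widely used marker of the secretory programme of senescent cells.

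The 250 bases before the start site are shown for Lif and Il6st, the members with the largest rise and fall that passed the test, and for Il6, which was near the limit of detection. They are RefSeq sequences of build GRCm38.p6, written 5′ to 3′ on the gene's strand, at chr11:4257318-4257567, chr13:112463820-112464069 and chr5:30012864-30013113, all on the plus strand. Capitals mark matches, on either strand, to TTCNNNGAA (STAT factors), TGANTCA (AP-1), GGNNTTNCC (NF-kappaB) or TGACGTCA (CREB), which do not overlap one another here.
Lif: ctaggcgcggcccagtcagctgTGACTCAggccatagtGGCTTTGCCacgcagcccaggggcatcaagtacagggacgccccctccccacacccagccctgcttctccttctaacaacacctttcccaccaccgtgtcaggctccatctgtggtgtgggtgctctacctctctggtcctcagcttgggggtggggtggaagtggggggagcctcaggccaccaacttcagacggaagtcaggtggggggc
Il6st: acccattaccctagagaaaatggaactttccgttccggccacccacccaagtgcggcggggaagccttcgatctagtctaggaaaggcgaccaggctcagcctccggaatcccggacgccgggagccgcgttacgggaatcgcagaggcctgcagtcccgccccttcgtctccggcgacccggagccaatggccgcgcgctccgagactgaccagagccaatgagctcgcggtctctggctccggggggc
Il6: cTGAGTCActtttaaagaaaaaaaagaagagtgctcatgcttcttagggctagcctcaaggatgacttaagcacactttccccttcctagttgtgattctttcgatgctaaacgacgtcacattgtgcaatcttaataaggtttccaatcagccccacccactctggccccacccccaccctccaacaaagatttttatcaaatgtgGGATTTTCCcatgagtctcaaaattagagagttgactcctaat
The Lif window holds 1 AP-1 match, which starts 228 bases before the start site, and 1 NF-kappaB match, starting at 212 bases. The Il6 window holds 1 AP-1 match, starting at 249 bases, and 1 NF-kappaB match, starting at 43 bases. The NF-kappaB letters were shortened after matches had been seen: a longer form with an additional G in front was searched first, and it matches in the Il6 window but not in the Lif window. None of the 4 motifs is in the Il6st window. Of 32851 mouse promoter windows of this length, 7.02% hold the STAT motif, 6.75% the AP-1 motif, 13.5% the NF-kappaB motif and 1.55% the CREB motif. A match is a string of letters and not a measured site.

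Total gene counts ran from 34034251 to 48708383 per library. Values are given as CPM, counts scaled to library size after TMM normalization (the trimmed mean of M-values), and 1 CPM was worth 25 to 53.4 counts. In non-radiated library 2 a single row, AY036118, held 32.9% of the counts, which lowered the depth left for other genes. Bone and marrow markers were abundant in all 6 libraries. The 8 osteoblast markers summed to 4540 to 6840 CPM in the non-radiated and 3370 to 4270 CPM in the radiated libraries. Most of that sum was 1 gene, Col1a1, with means of 5230 and 3420 CPM. Neutrophil markers (10 genes) summed to 15000 to 19200 CPM in the non-radiated and 11900 to 13900 CPM in the radiated libraries. Skeletal muscle markers (12 genes) summed to 411 to 765 CPM in the non-radiated libraries and to 1740, 5360 and 548 CPM in radiated libraries 1, 2 and 3, so muscle RNA was uneven among the radiated femurs. 

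On day 21 a difference was detected in 3 of the 9 tested members. The ligand genes Lif and Clcf1 rose in the radiated femur, the shared subunit gene Il6st fell, and the other 6 tested members did not pass the test. Of the 10 members, 9 passed the filter on low counts and 3 were called by edgeR's quasi-likelihood test at a Benjamini-Hochberg adjusted p under 0.05, 2 higher and 1 lower. Among all 18757 genes tested, 7.80% were called, 4.56% higher and 3.24% lower. The median log2 fold change of the 9 tested members was 0.03, beside 0.00 over all genes tested. In bulk tissue such as this, fewer cells of a type and less RNA per cell cannot be told apart.

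**Figure D1:**
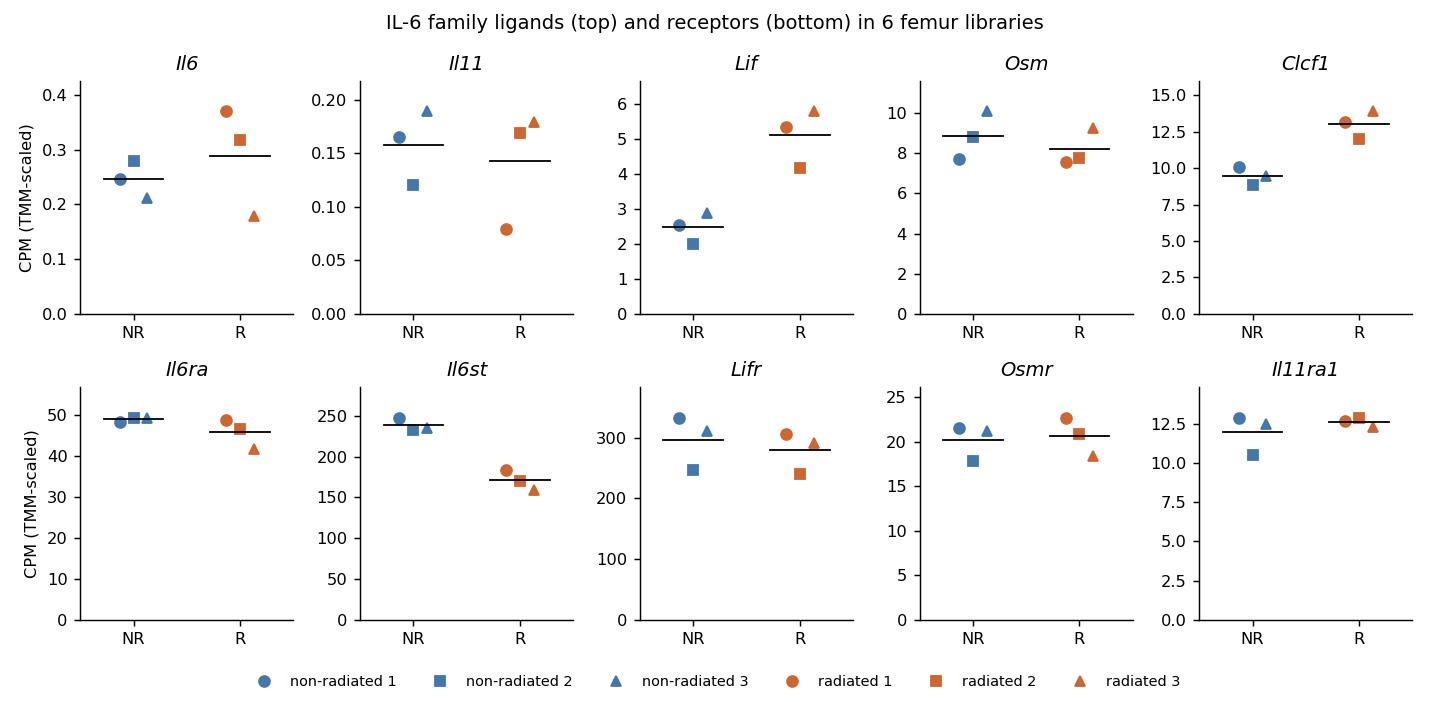
TMM-scaled CPM (vertical axes, from 0) of the 10 members in the 3 non-radiated (NR) and 3 radiated (R) libraries. Points are libraries, shapes give the library number and bars are group means. Lif and Clcf1 are higher and Il6st is lower in every radiated library, and the groups overlap for the other 7.

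Among the ligands, Lif (ENSMUSG00000034394, chromosome 11, 4257557 to 4272514) had the largest change. LIF is a cytokine named for its effect on leukaemia cells and is made by many stromal and immune cells. It was at 2.55, 2.0 and 2.88 CPM in non-radiated libraries 1, 2 and 3 and at 5.34, 4.19 and 5.80 CPM in radiated libraries 1, 2 and 3. Every radiated library was above every non-radiated library. The means were 2.48 ± 0.446 and 5.11 ± 0.828 CPM (SD, n = 3), a 2.06-fold difference, or 1.03 as log2 fold change in edgeR, with SE 0.18 and adjusted p 0.00913. Between same-numbered femurs the log2 difference was 1.06, 1.07 and 1.01, so the size of the rise was alike in the 3 number pairs. Of all genes tested, 25.9% had groups that did not overlap, 14.4% with the radiated libraries higher. Radiated library 3 had the highest Lif level. The call was kept in each of the 15 alternative analyses.

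Clcf1 (ENSMUSG00000040663, chromosome 19, 4214238 to 4223490), the gene of cardiotrophin-like cytokine factor 1, a cytokine that also acts on B cells, rose by less. It was at 10.1, 8.82 and 9.44 CPM in the non-radiated libraries and at 13.2, 12.0 and 13.9 CPM in the radiated libraries. The groups did not overlap, and as with Lif the highest value was in radiated library 3. The ratio of means was 1.38-fold and edgeR gave a log2 fold change of 0.46 with SE 0.10 (adjusted p 0.0230). This call was less firm than that of Lif: it was lost without non-radiated library 2 (adjusted p 0.0959), non-radiated library 3 (0.0570), radiated library 1 (0.0887) or radiated library 3 (0.0729), and with scaling by library totals alone (0.113). An 87-base gene on the opposite strand, Gm26115, lies within Clcf1, and whether the counting used strand is not stated.

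Oncostatin M, made mostly by cells of the myeloid lineage and T cells, is encoded by Osm (ENSMUSG00000058755, chromosome 11, 4236420 to 4241026), 16530 bases from Lif on the same strand. Osm was at 7.73, 8.82 and 10.1 CPM in the non-radiated and 7.58, 7.77 and 9.28 CPM in the radiated libraries, and the groups overlapped. Its log2 fold change was -0.11 (SE 0.13, 95% interval -0.41 to 0.19, edgeR adjusted p 0.694), an interval that does not reach the rise of its neighbour. Within each library, where scaling cancels, the ratio of Lif to Osm per length was 0.172, 0.118 and 0.150 in the non-radiated libraries and 0.368, 0.282 and 0.327 in the radiated libraries. The ratio did not overlap between groups, with a log2 difference of 1.16 (SE 0.19). The same ratio for Clcf1 was 0.662 ± 0.120 in the non-radiated and 0.975 ± 0.0764 in the radiated libraries (SD, n = 3), again without overlap. In all, 7 such ratios were formed after the fold changes were known, each of a called member over members that were not called. Their direction follows from that choice, so they restate the changes on a scale that needs no normalization and are given with no test.

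Il6 and Il11 were the lowest of the family. Il6 (ENSMUSG00000025746, chromosome 5, 30013161 to 30019968) had 9, 7 and 9 counts in the non-radiated libraries and 14, 17 and 8 counts in the radiated libraries. Radiated library 3 was the lowest of all 6 in CPM, at 0.179, and the groups overlapped. By edgeR its log2 fold change was 0.24 with SE 0.405 (adjusted p 0.791), and the 95% interval ran from -0.67 to 1.16. Il11 (ENSMUSG00000004371, chromosome 7, 4773055 to 4782857), a ligand made by stromal cells and osteoblasts, had 6, 3 and 8 counts in the non-radiated and 3, 9 and 8 counts in the radiated libraries and did not pass the filter. Fitted with all genes kept, it was at -0.15 on the log2 scale with SE 0.61 (edgeR adjusted p 0.933). No difference was detected in either gene.

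Il6st (ENSMUSG00000021756, chromosome 13, 112464070 to 112510086), the gene of gp130, had the smallest p of the family. It was at 248, 233 and 235 CPM in the non-radiated libraries and at 184, 170 and 159 CPM in the radiated libraries. The lowest non-radiated library was well above the highest radiated one, and radiated library 3 was the lowest. The means were 238 ± 8.19 and 171 ± 12.6 CPM (SD, n = 3), a ratio of 0.719, or -0.48 as log2 fold change in edgeR, with SE 0.07 and adjusted p 0.00254. The groups did not overlap in this direction for 11.5% of all genes tested. Between same-numbered femurs Il6st fell by 0.43, 0.45 and 0.56 on the log2 scale. The call did not hold under 1 of 15 alternatives, scaling by library totals alone (log2 fold change -0.29, adjusted p 0.637), under which the median of all genes moved from 0.00 to 0.195.

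The chains that pair with gp130 did not pass the test. Lifr (ENSMUSG00000054263, chromosome 15, 7129559 to 7197489), the LIF receptor, was at 333, 247 and 310 CPM in the non-radiated and 306, 240 and 291 CPM in the radiated libraries. In both groups library 2 was the lowest, and the groups overlapped (log2 fold change -0.09, SE 0.12, 95% interval -0.36 to 0.18, edgeR adjusted p 0.734). Between same-numbered femurs the log2 difference was -0.12, -0.045 and -0.09, lower in all 3, and with the replicate block the SE was 0.0606 and the adjusted p 0.485. Il6ra (ENSMUSG00000027947, chromosome 3, 89869324 to 89913162), the IL-6 receptor of hepatocytes and leukocytes, was at 48.4, 49.4 and 49.2 CPM in the non-radiated and 48.9, 46.6 and 41.8 CPM in the radiated libraries. Its values overlapped through radiated library 1, and its interval of -0.25 to 0.06 lies above the fitted fall of Il6st. Osmr (ENSMUSG00000022146, chromosome 15, 6813577 to 6874969), the oncostatin M receptor of stromal cells, was at 21.5, 17.8 and 21.2 CPM in the non-radiated and 22.7, 20.9 and 18.4 CPM in the radiated libraries, with an interval of -0.20 to 0.27. Il11ra1 (ENSMUSG00000073889, chromosome 4, 41699989 to 41769474), the IL-11 receptor, was at 12.9, 10.5 and 12.5 CPM in the non-radiated and 12.7, 12.9 and 12.3 CPM in the radiated libraries, with an interval of -0.15 to 0.30. The annotated span of Il11ra1 overlaps 6 other genes, among them Galt on the same strand and Dctn3 on the opposite strand, so its counts are uncertain. Its near copy Il11ra2 was listed at 0 in all 6 libraries.

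**Figure D2:**
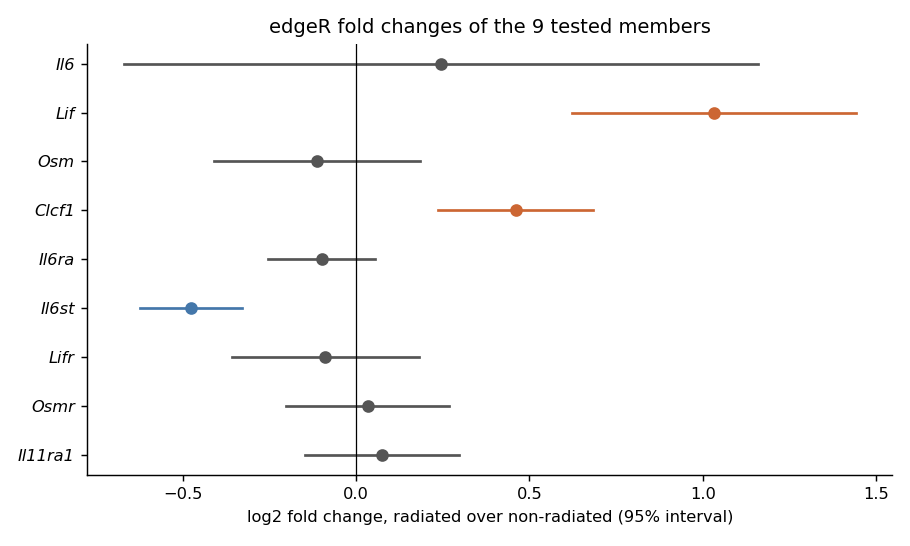
Log2 fold change of radiated over non-radiated femur (horizontal axis) for the 9 tested members, with 95% intervals from the edgeR fit of 6 libraries. Orange marks a rise and blue a fall with adjusted p under 0.05. The intervals of Lif, Clcf1 and Il6st exclude 0, and that of Il6 spans -0.67 to 1.16.

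The other ratios set Il6st against the chains that pair with gp130, except Il11ra1 alone, for which no ratio was computed. Per length, Il6st was at 12.6, 14.3 and 12.1 times Osmr in the non-radiated libraries and at 8.84, 8.90 and 9.46 times in the radiated libraries. Against Il6ra the ratio was 1.46 ± 0.0668 in the non-radiated and 1.13 ± 0.0229 in the radiated libraries (SD, n = 3). Against Lifr it was 0.758 ± 0.102 and 0.577 ± 0.0776 (SD, n = 3). Against the summed level of Il6ra, Lifr, Osmr and Il11ra1 it was 0.435, 0.493 and 0.429 in the non-radiated and 0.339, 0.368 and 0.319 in the radiated libraries. None of these 4 ratios overlapped between groups, and the log2 differences ran from -0.515 to -0.377. The ratio of Lif to Lifr per length was 0.0182, 0.0192 and 0.0221 in the non-radiated and 0.0414, 0.0415 and 0.0474 in the radiated libraries.

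**Figure D3:**
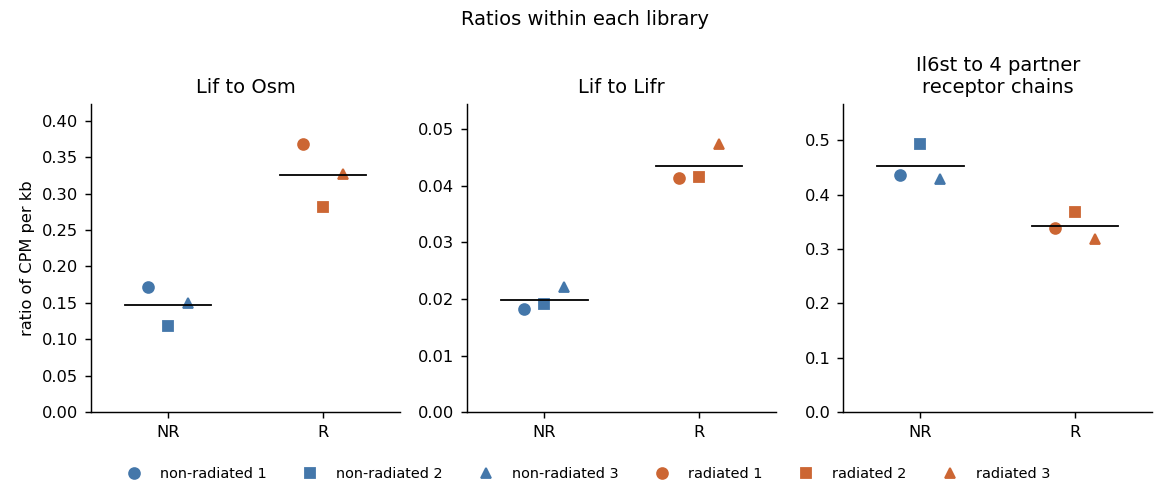
Ratios of CPM per kb within each of the 3 non-radiated (NR) and 3 radiated (R) libraries (vertical axes, from 0): Lif to Osm, Lif to Lifr, and Il6st to the sum of Il6ra, Lifr, Osmr and Il11ra1. Points are libraries and bars are group means, and in each panel the groups do not overlap.

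In level per length, over all 6 libraries, the order was Lifr, Il6st, Il6ra, Osm, Clcf1, Il11ra1, Osmr, Lif, Il6 and Il11. Lifr had a mean of 27.9 CPM per kb, Il6st 18.5 and Il6ra 14.2, so receptor chains led the family. The first ligand, Osm, was at 3.76 CPM per kb, and Il6 and Il11 were at 0.246 and 0.113. The ranges of the neighbours Il6st and Il6ra overlapped, although Il6st was above Il6ra in each of the 6 libraries. Osm and Clcf1 also overlapped, with Osm higher in 5 of 6 libraries, as did Clcf1 and Il11ra1, with Clcf1 higher in 4 of 6. This last order differed between the groups: Il11ra1 averaged 2.68 and Clcf1 2.55 CPM per kb in the non-radiated libraries, and 2.83 and 3.51 in the radiated libraries. The other neighbours in the order did not overlap. Lif went from 0.569 ± 0.103 CPM per kb in the non-radiated to 1.18 ± 0.190 in the radiated libraries (SD, n = 3), and it kept its place below Osmr.

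**Figure D4:**
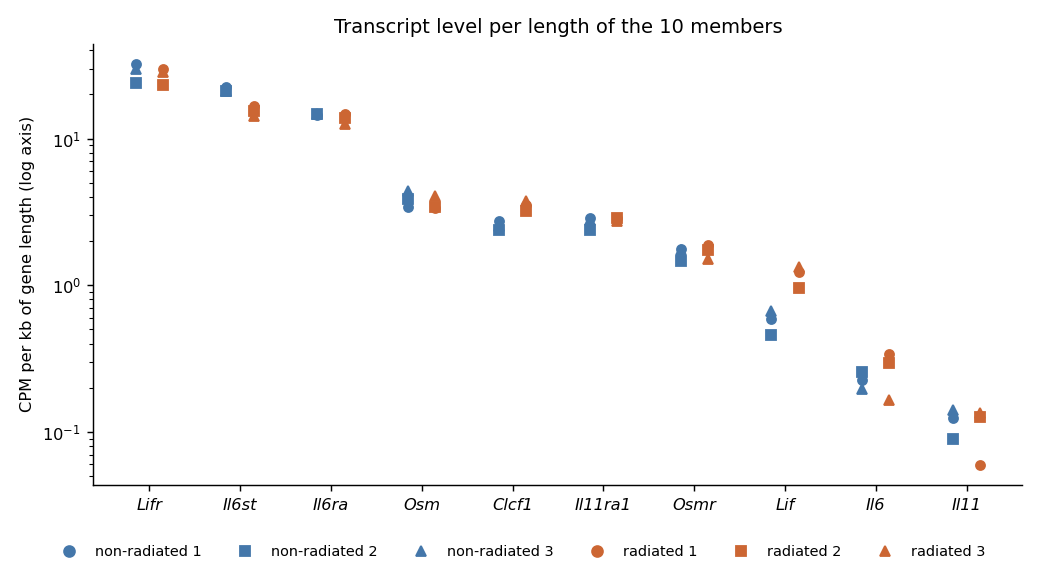
Transcript level per length, in CPM per kb of gene length on a log axis, of the 10 members in each library, ordered by the mean over 6 libraries. Non-radiated libraries are to the left and radiated libraries to the right of each name. Lifr, Il6st and Il6ra are the highest, with means of 27.9, 18.5 and 14.2, and Il11 is the lowest at 0.113.

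Over the 6 libraries the profile of log2 CPM of Il6st was most like those of Hpse, the gene of heparanase, of the gene listed as Clca1 and of I830077J02Rik, with Pearson r of 0.996, 0.996 and 0.994. These were the 3 highest of 15579 genes averaging 1 CPM or more, and the 6 points share libraries and the group difference. Hpse was at 34.6 CPM in the non-radiated and 25.4 CPM in the radiated libraries on average, Clca1 at 21.8 and 12.0 CPM, and I830077J02Rik at 29.9 and 19.0 CPM.

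The summed CPM of 9 marker lists did not overlap between the groups, and these lists are set beside the called members here. The sums of the other lists, for muscle, osteocytes, chondrocytes, osteoclasts, T and NK cells and erythroid cells, did overlap. For osteoclasts they were 1080 to 1480 CPM in the non-radiated and 1240 to 1460 CPM in the radiated libraries. Lower with Il6st were all 7 megakaryocyte markers, each called, whose sum was 982 to 1040 CPM in the non-radiated and 327 to 394 CPM in the radiated libraries. The 5 tested mast cell and basophil markers were all called lower, and the list summed to 189 to 210 and 129 to 145 CPM. The untested marker of that list, Mcpt4, was higher without overlap, with means of 0.115 CPM in the non-radiated and 0.272 CPM in the radiated libraries. Of 8 osteoblast markers 3 were called lower, with the sums given above, which were mostly Col1a1. In that list 7 log2 fold changes were negative and 1 was positive. Of 7 endothelial markers 2 were called lower and none higher, at 686 to 748 and 502 to 543 CPM, although 3 others were higher without overlap. The fall of that sum lay mainly in 1 gene, Vwf, with means of 341 CPM in the non-radiated and 134 CPM in the radiated libraries. The endothelial list had 4 positive and 3 negative log2 fold changes, with a median of 0.004, so its sum fell but the list as a whole did not. Of 10 neutrophil markers 2 were called lower, and for all 10 the groups did not overlap, with sums of 15000 to 19200 and 11900 to 13900 CPM. Of 7 marrow stroma markers 2 were called lower and 5 did not overlap, at 1380 to 1410 and 1050 to 1190 CPM. Higher with Lif and Clcf1 were the 8 adipocyte markers, 7 of them called, at 190 to 212 CPM in the non-radiated and 392 to 510 CPM in the radiated libraries. All 6 B cell markers were called higher, at 287 to 303 and 440 to 518 CPM, and of 8 macrophage markers 4 were called higher and 1 lower, at 1040 to 1200 and 1300 to 1490 CPM. No marker of these 9 lists was at 0 in all libraries. These counts stand beside 4.56% of all genes tested called higher and 3.24% called lower. The groups did not overlap for 14.4% of all genes with the radiated libraries higher and for 11.5% with them lower. The part of these cells in the changes of Lif, Clcf1 and Il6st was not tested.

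The rest of the pathway was followed in 9 lists of 76 genes chosen by role, of which 71 were tested. Some of these genes, among them Lepr, Runx2, Bglap and Sost, are also in the marker lists, so marker and pathway lists are not independent. Called were 8 of the 71, 2 higher and 6 lower, beside 7.80% of all genes (4.56% higher and 3.24% lower), and the median log2 fold change was -0.04, beside 0.00 over all genes. With scaling by library totals alone 2 were called, and without non-radiated library 1 or 2 there were 5. The other ligands of the family had 0 calls among 4 tested (edgeR, and 0 at an unadjusted p under 0.05). Over all 18757 genes tested, 4040 had an unadjusted p under 0.05 in edgeR. Among these other ligands the smallest p were those of Il27 and Ebi3, with edgeR adjusted p of 0.459 and 0.671, while Ctf2 was listed at 0 throughout. The other receptors had 0 calls among 3 tested, with 1 gene at an unadjusted p under 0.05. That gene was Cntfr, which encodes the receptor that binds CLCF1. It had 8, 3 and 4 counts in the non-radiated and 19, 22 and 12 counts in the radiated libraries, which did not overlap, and edgeR gave a log2 fold change of 1.42 with SE 0.46 (adjusted p 0.101). Il31ra had an edgeR adjusted p of 0.447.

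Downstream of the receptors, 2 of 12 signal transducers were called lower and none higher, beside 3.24% of all genes called lower. Jak2, a kinase bound to gp130, was at 182, 182 and 174 CPM in the non-radiated and 143, 146 and 139 CPM in the radiated libraries (log2 fold change -0.33 with SE 0.05, edgeR adjusted p 0.00456). Ptpn11, the phosphatase SHP2 that gp130 recruits, was at 219, 226 and 236 CPM and at 178, 184 and 174 CPM (log2 fold change -0.35 with SE 0.05, edgeR adjusted p 0.00494). Both calls were lost with scaling by library totals alone. Jak1, another kinase bound to gp130, was at 349, 351 and 327 CPM and at 315, 310 and 297 CPM, without overlap, and did not pass the test (log2 fold change -0.16, edgeR unadjusted p 0.0233, adjusted p 0.148). Stat3 itself was at 126 ± 8.22 CPM in the non-radiated and 118 ± 7.69 CPM in the radiated libraries (SD, n = 3), a difference within the spread between libraries. The 8 negative regulators had 0 calls (edgeR, 1 at an unadjusted p under 0.05). Socs3 was at 10.3 ± 1.23 and 10.8 ± 0.946 CPM (SD, n = 3). The smallest p of that list belonged to Socs2 and Pias3, with edgeR adjusted p of 0.164 and 0.246. The 4 genes for the shedding of receptors had 0 calls, and 2 had an unadjusted p under 0.05 (edgeR), beside 4040 of all 18757 genes. The edgeR adjusted p was 0.147 for Adam10 and 0.156 for Rhbdf1.

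Of 22 genes that STAT3 is known to induce, 1 was called, higher, a share below the 7.80% of all genes tested, and nothing is read from it about the list. The median of their log2 fold changes was 0.00, and 5 had an unadjusted p under 0.05 (edgeR), beside 4040 of all 18757 genes tested. For 4 of the 22 the groups were apart, with the radiated libraries higher for 2 and lower for 2, beside 25.9% of all genes. The gene that rose was Icam1, an adhesion molecule of endothelium and leukocytes, at 13.1, 13.4 and 14.6 CPM in the non-radiated and 19.5, 19.4 and 16.8 CPM in the radiated libraries (log2 fold change 0.44 with SE 0.09, edgeR adjusted p 0.0195). It no longer passed under 6 of 15 alternatives: the muscle covariate (log2 fold change 0.33, adjusted p 0.235), library totals alone (0.0952), and leaving out 1 library, which was non-radiated 1 (adjusted p 0.0749), non-radiated 2 (0.0728), radiated 1 (0.0905) or radiated 2 (0.0672). Of 10 genes that can induce these ligands, 7 had a negative log2 fold change and 4 an unadjusted p under 0.05 (edgeR). Only 1 was called, beside 7.80% of all genes tested. Il1b was lower without overlap but was not called (log2 fold change -0.62, edgeR adjusted p 0.143). The called gene was Il1a, which encodes interleukin-1 alpha and fell. It was at 5.49, 6.11 and 5.19 CPM in the non-radiated and 3.75, 3.30 and 3.79 CPM in the radiated libraries (log2 fold change -0.63 with SE 0.13, edgeR adjusted p 0.0189). It also failed to pass under 6 alternatives: library totals alone (adjusted p 0.572), the muscle covariate (0.206), and the fits that dropped non-radiated 1 (0.0553), non-radiated 2 (0.0705), radiated 1 (0.0586) or radiated 2 (0.0641). Of 6 bone genes known to answer these ligands, 1 was called, beside 7.80% of all genes tested. This was the osteoblast transcription factor Runx2, at 87.5 ± 4.97 and 63.1 ± 5.02 CPM (SD, n = 3), lower in the radiated libraries. That call did not hold with library totals alone (edgeR adjusted p 0.640). Of the 6 bone genes, 5 had a negative log2 fold change and 3 an unadjusted p under 0.05 (edgeR). Among these were Sost (log2 fold change -0.47, edgeR adjusted p 0.197) and Bglap (-0.70, 0.0729), which were not called. Tnfsf11, the gene of RANK ligand, was at 3.35 ± 0.787 and 3.17 ± 0.651 CPM (SD, n = 3), with a log2 fold change of -0.10 (SE 0.21).

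All 3 tested genes of the list of receptors built like gp130 and their ligands were called, beside 7.80% of all genes tested. Lepr, the leptin receptor that also marks marrow stroma, was at 116, 98.2 and 102 CPM in the non-radiated and 79.2, 76.3 and 71.9 CPM in the radiated libraries (log2 fold change -0.48, edgeR adjusted p 0.00381, but 0.617 with library totals alone). Csf3r, the receptor for the neutrophil growth factor G-CSF, was at 251, 272 and 284 CPM and at 203, 229 and 173 CPM (log2 fold change -0.41, edgeR adjusted p 0.0336). It did not pass with library totals alone (adjusted p 0.724), nor in the fits that dropped non-radiated 1 (0.0546), non-radiated 2 (0.0882), non-radiated 3 (0.0758), radiated 1 (0.104) or radiated 3 (0.0528). The ligand Lep, the adipocyte hormone leptin, rose from 5, 3 and 3 counts in the non-radiated to 56, 94 and 55 counts in the radiated libraries (log2 fold change 3.77 with SE 0.33, edgeR adjusted p 0.000185), next to the adipocyte markers given above. The ligand of Csf3r, Csf3, had at most 3 counts in a library. These genes were put beside the members for their receptor structure, with earlier results of these data known. Nothing is read from the share of calls in this list, and no test compared the lists with one another.

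**Figure D5:**
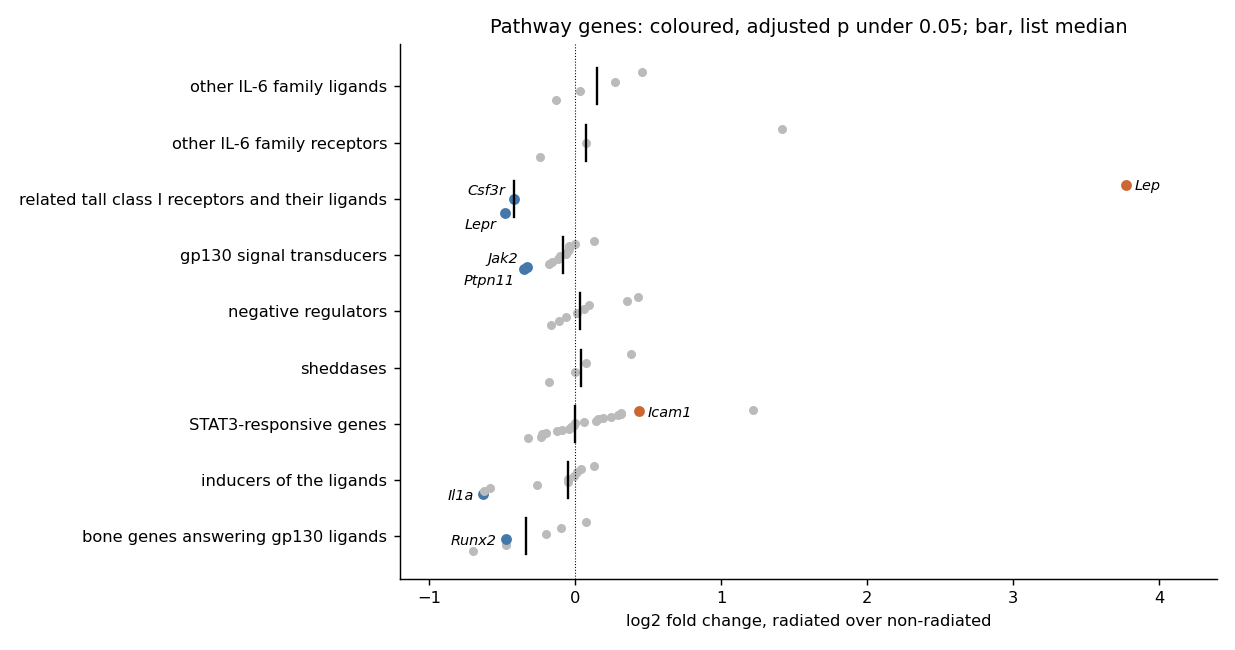
Log2 fold change of radiated over non-radiated femur (horizontal axis) for the 71 tested genes of 9 pathway lists, 1 row per list. Points are genes, orange for a rise and blue for a fall with adjusted p under 0.05 and grey for the rest, and bars are list medians. Of the named genes Lep is the farthest right, at 3.77, and the STAT3-responsive genes centre on 0.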

How the data were processed

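RNA-seq gene counts from 3 radiated and 3 non-radiated mouse femurs were analysed. Per the labels' protocols, RNA came from homogenized bone stripped of muscle and went into a stranded mRNA library kit. The submitters' processing notes name bcl2fastq, STAR 2.5.2b, Subread, featureCounts and build mm10; the annotation and strand setting are not given in the sources used here. The table deposited by the authors holds raw counts and RPKM per gene and library, per the file headers. RPKM was used for no result. CPM per kb is CPM divided by the deposited gene length.

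Counts were tested in R 4.3.3 with edgeR 4.0.16: filterByExpr (minimum count 10, minimum total 15) kept 18757 genes, libraries were scaled by TMM, a quasi-likelihood model held the group term alone, and Benjamini-Hochberg adjustment covered all tested genes. Standard errors were obtained as the log2 fold change over the root of the F statistic, and 95% intervals from the t distribution. The fit was tested on simulated data.

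Across genes, deviations of same-numbered libraries correlated at 0.166, 0.277 and 0.187, and those of different-numbered libraries at -0.17 to -0.00824. The numbers were therefore taken to pair the femurs, although no label ties a number to a mouse. Deviations were taken from each group's mean, so higher same-number correlations push the others down. The check therefore cannot show that the same number means the same mouse. The main fit did not use these pairs, and the replicate block did. Alternatives were size factors and the Wald test of DESeq2 1.42.0, library totals with and without AY036118 and Gm26917, no filter, a floor of 1 CPM on the mean, limma-voom (limma 3.58.1), the replicate block, the muscle marker share as a covariate, and leaving out each library.

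The members, lists and alternatives were chosen with earlier results of these data known; the ratios and the final NF-kappaB motif were chosen after seeing the data. All members are named. In each pathway list called genes are named, up to 6 by p, or otherwise the 2 with the smallest p. Outside this rule, Ctf2, Il11ra2, Jak1, Stat3, Socs3, Tnfsf11, Sost, Bglap, Il1b and Csf3 were named after their values were seen. The same holds for the markers Vwf, Mcpt4 and Col1a1. For the member with the smallest p the 3 genes of highest Pearson r (log2 of CPM plus 0.1) are named. Promoters were found for 8 of the 10 members and are from RefSeq (GRCm38.p6).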

Additional observations from a re-analysis of the deposited data

How the results depend on the processing

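Lif was called in all 15 alternatives (log2 fold change 0.90 to 1.31, edgeR, DESeq2 or limma adjusted p at most 0.0378), and Il6st and Clcf1 kept their direction in all 15, with the lost calls given above. The number of members called was 3 in each alternative that kept all libraries, except 1 with library totals alone, and 2 to 3 when a library was left out. Over all genes, 1463 were called. The muscle covariate gave 756, library totals alone 1000 and the replicate block 1670. The DESeq2 Wald test gave 1938, no filter on low counts gave 2073, and leaving out a library gave 764 to 1376. Higher genes were 58.5% of the calls, 85.4% with library totals alone and 66.8% with totals without AY036118 and Gm26917. Of the pathway genes, 8 were called, 2 with library totals alone, 9 with the replicate block, 10 with no filter and 5 to 8 when a library was left out. With the replicate block the log2 fold changes were 1.05 for Lif, 0.46 for Clcf1 and -0.48 for Il6st, and the block changed no call among the members. Signs turned only for genes that were not called in any setting. With library totals alone Osm was at 0.081, Il6ra at 0.094, Lifr at 0.073, Ebi3 at 0.088, Pias3 at 0.029 and Adam10 at 0.013. With the muscle covariate Il6 was at -0.222, Osm at 0.049, Lifr at 0.074 and Osmr at -0.062. When a library was left out, Lifr ran from -0.217 to 0.008, Osmr from -0.061 to 0.111 and Il11ra1 from -0.019 to 0.128: the turns came without radiated library 2 for Lifr (0.008), without non-radiated library 2 (-0.061) or radiated library 1 (-0.040) for Osmr, and for Il11ra1 without non-radiated library 2 (-0.019). The cause was not tested. Depth limits the precision for Il6, Il11 and Cntfr, which had 3 to 22 counts per library.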
